A study of Mus musculus with 4 samples.

Results

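*Npy* and *Penk* are 2 of the 16892 genes counted in these data. They were chosen by their symbols, as the rows of the count matrix for neuropeptide Y and proenkephalin, and their level and share of cells were taken in each of the 34 cell populations named in the deposited cell table and in each of the 4 libraries. The cells came from the caput, corpus and cauda epididymis and the vas deferens of untreated male FVB/NJ mice aged 10 to 12 weeks. Each region was a pool of 8 pieces from 4 mice, was freed of sperm and dissociated, and was sequenced from transcript 3′ ends as 1 library on the 10X Chromium platform, so region and library cannot be told apart and no test between regions was possible. The libraries held 1433 cells for the caput, 2325 for the corpus, 1616 for the cauda and 3506 for the vas deferens, with medians of 1433 to 2207 unique molecular identifiers (UMIs) per cell. Population names follow the numbering of the study, in which Principal 1 to Principal 15 are subclusters of the principal cells of the epithelium, ordered from caput to vas deferens, and the other names describe smaller cell types.

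Neuropeptide Y is an amidated peptide that sympathetic nerves release with noradrenaline, and it acts through receptors coupled to G proteins. Proenkephalin is a precursor that holds several copies of the opioid pentapeptides Met-enkephalin and Leu-enkephalin. Both precursors pass through the secretory pathway, where prohormone convertases cut them at pairs of basic residues, carboxypeptidase E trims the ends and, for neuropeptide Y, peptidylglycine alpha-amidating monooxygenase adds the amide.

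*Npy* lies on chromosome 6 (GRCm38, 49822710 to 49829507, plus strand) and has 4 exons that encode a precursor of 97 residues. No annotated gene overlaps it. The stretch below codes for the mature peptide of 36 residues and the site where the precursor is cut, and it is shown because it is the part of the message that defines the peptide. It joins exons 2 and 3 (GENCODE annotation of GRCm38, chr6:49823682-49827501), is written 5′ to 3′, and has in capitals the codons of the amidation glycine and the basic pair.
Npy: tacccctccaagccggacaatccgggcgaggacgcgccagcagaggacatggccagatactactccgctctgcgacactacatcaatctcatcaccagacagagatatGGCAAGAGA

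*Penk* lies on chromosome 4 (GRCm38, 4133531 to 4138819, minus strand), has 2 exons and encodes 268 residues. The antisense gene A830012C17Rik overlaps its 5′ end by 499 bases, on the side away from the 3′ tags that were counted. All 7 enkephalin copies of the precursor lie in exon 2. Of these, 6 end in methionine and 1 in leucine, and 5 have a basic pair on both sides. The 3 copies below show the first Met-enkephalin copy, the single Leu-enkephalin copy and the last copy at the end of the precursor, written 5′ to 3′ on the minus strand, with the 15 bases of the pentapeptide in capitals and 6 bases on each side.
Penk Met 1 (chr4:4134328-4134354): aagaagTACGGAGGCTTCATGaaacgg
Penk Leu 6 (chr4:4133935-4133961): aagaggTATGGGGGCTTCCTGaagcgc
Penk Met 7 (chr4:4133842-4133868): aaaagaTACGGGGGCTTTATGcggttc
The first copy is followed by a lysine and arginine pair, the usual signal for cutting, whereas the last copy runs into the end of the precursor without one.

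The population names were compared with lists of marker genes, and not every list went with the names. The 4 stromal markers (*Dcn*, *Col1a1*, *Col1a2* and *Pdgfra*) summed to 21825 UMIs per 1000000 UMIs (UPM, the unit of all levels here) in the secretory stromal cells and 30.5 UPM in Principal 6, in which *Col1a1* was at 0. The 4 markers of luminal epithelium (*Epcam*, *Krt8*, *Krt18* and *Cldn3*) summed to 5066 UPM in Principal 6 and 11.8 UPM in the secretory stromal cells. The 4 immune markers (*Ptprc*, *Cd52*, *Tyrobp* and *Lyz2*), however, summed to 17751 UPM in Principal 6. With *Ptprc* and *Tyrobp* at 0, that sum came from *Cd52* and *Lyz2* alone. Over all principal cells the same 4 summed to 20561 UPM, so a high sum was not particular to Principal 6. The 4 muscle markers (*Myh11*, *Actg2*, *Des* and *Cnn1*) exceeded the stromal ones in myofibroblasts (4045 against 2921 UPM). They also did so in low-UMI stromal cells (5579 against 4857 UPM). Since both peptides are best known from nerves, nerve and glia markers were counted over all 8880 cells, and *Sox10* had 3 UMIs, *Th* 3 and *Snap25* 5, whereas *Ncam1*, which other cells also express, had 2287. Among 8837 different cell barcodes, 43 occurred in more than 1 library. The 95% intervals given here cover counting error only. Before deposit the authors had subtracted estimated ambient RNA, which took 2.80% to 4.48% of the UMIs of a library.

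Across all cells *Npy* had 4960 UMIs in 670 cells and *Penk* had 9154 UMIs in 1429 cells. *Npy* was a message of principal cells, with 4515 of its UMIs in that type, and *Penk* a message of stromal cells, with 8570 UMIs there. The level of *Npy* in principal cells (472 UPM) was 9.58 times that in clear cells, the next type, and the level of *Penk* in stromal cells (1321 UPM) was 10.9 times that in endothelial cells. Of the 11352 genes that reached 20 UMIs in their highest type, 11.8% had 1 type at least 4-fold above every other, 2.21% with principal cells highest and 1.59% with stromal cells highest. Both genes were carried together by 48 cells.

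**Figure D1:**
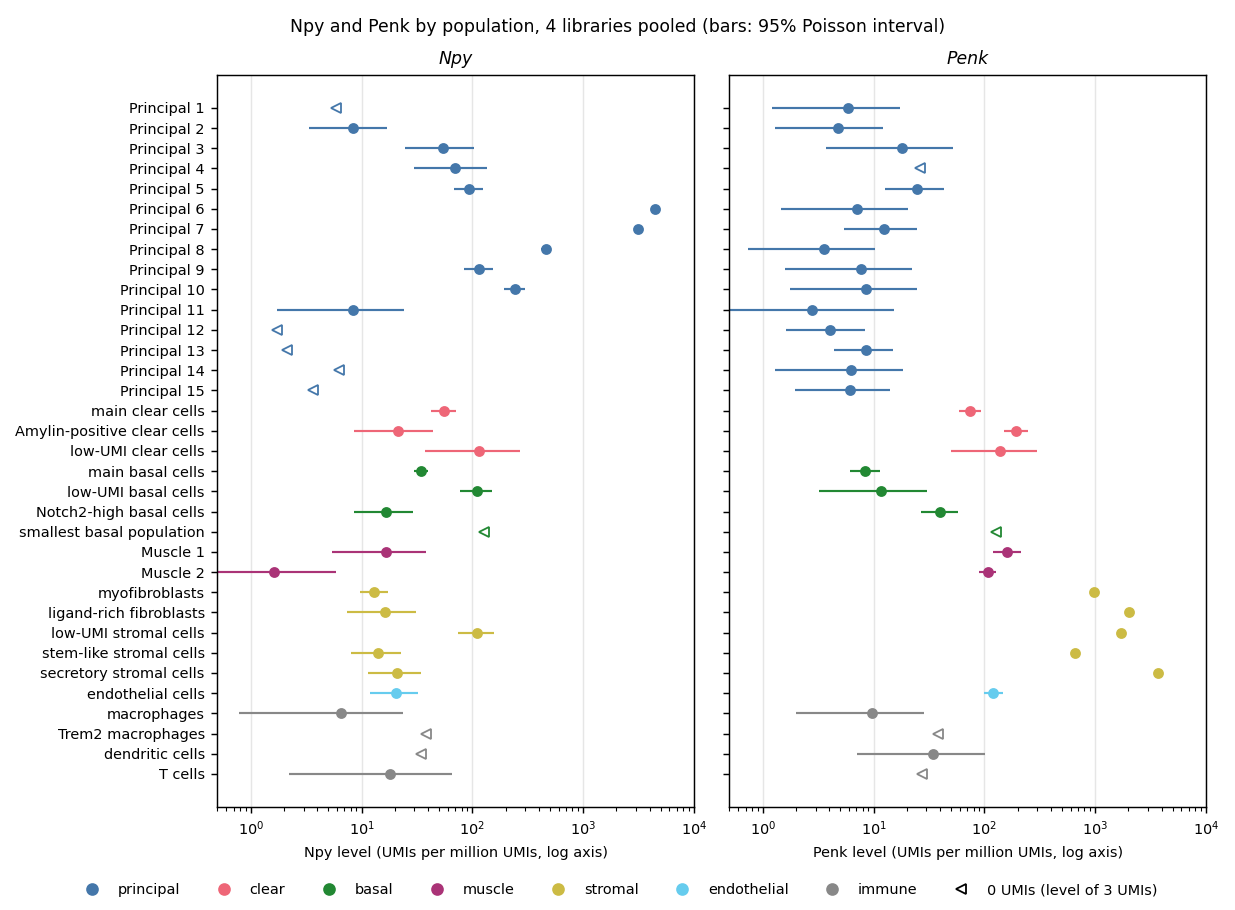
Level of *Npy* (left) and *Penk* (right) in UMIs per 1000000 UMIs on a log axis for each of the 34 populations, with the 4 libraries pooled. Points are coloured by cell type, bars are 95% Poisson intervals, and open triangles mark populations with 0 UMIs at the level that 3 UMIs would give. *Npy* stands out in Principal 6 and 7 (4444 and 3151 UPM), and *Penk* in the 5 stromal populations (663 to 3677 UPM).

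Neuropeptide Y was highest in the principal cells of the corpus. In principal cells pooled by library, *Npy* had 22 UMIs in the caput (12.8 UPM, 95% interval 8.0 to 19.3), 3815 in the corpus (2689 UPM, 2604 to 2776), 677 in the cauda (389 UPM, 360 to 420) and 1 in the vas deferens (0.214 UPM, 0.00541 to 1.19). The intervals of the 4 libraries did not overlap. The corpus was 6.91 times the cauda (95% interval 6.37 to 7.51) and 211 times the caput. *Npy* thus had 1 library at least 4-fold above every other, as did 6.61% of 9122 genes that reached 20 UMIs in the principal cells of a library, and the corpus was that library for 1.46% of them.

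Within the corpus, *Npy* was concentrated in a pair of subclusters. Principal 6 had 4444 UPM (4246 to 4649), where *Npy* ranked 16 by UMIs among 3453 genes with at least 20 UMIs, and Principal 7 had 3151 UPM (3016 to 3292), where it ranked 30 of 4161. In corpus cells alone, both together were 28.2 times as high as Principal 5 (20.7 to 39.5), whose 172 corpus cells had 40 UMIs (131 UPM, 93.6 to 178). Principal 6 was 1.41 times Principal 7 (1.32 to 1.5) with all libraries pooled and 1.44 times in corpus cells alone (1.35 to 1.54). The few cells of these subclusters that came from the cauda did not share that order, as 13 cauda cells of Principal 6 had 2652 UPM (1927 to 3560) and 18 cauda cells of Principal 7 had 4313 UPM (3653 to 5058). A single cell held 34.1% of the UMIs of the former group and another 28.5% of the latter. The intervals take UMIs as independent and are too narrow for such counts. Without the corpus library the ratio was 0.776 (0.543 to 1.09).

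Most cells of both subclusters carried the message. After each cell was thinned to 1000 UMIs, 123 of 139 cells of Principal 6 had *Npy* (88.5%, Clopper-Pearson interval 82.0 to 93.3) and 90 of 119 cells of Principal 7 (75.6%, 66.9 to 83.0). Thinning left out 202 and 246 shallower cells, and without thinning the shares were 66% and 54.8%. In the cells of the corpus that were not principal cells, 43 of 1004 thinned cells had *Npy* (4.28%). The level per cell was uneven. Among the 341 cells of Principal 6, 116 had no UMI, 55 had 10 or more and 19 had 20 or more, and the 35 richest cells held 45.4% of the UMIs. Principal 7 was more uneven, with 165 of 365 cells at 0, 26 cells at 20 or more, a highest cell of 71 UMIs and 57.8% of its UMIs in the 37 richest cells. These counts are unthinned and also reflect depth, with a median of 787 UMIs per cell in Principal 6 and 458 in Principal 7. In thinned cells the variance was 2.77 times the mean in Principal 6 and 3.74 times in Principal 7.

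**Figure D2:**
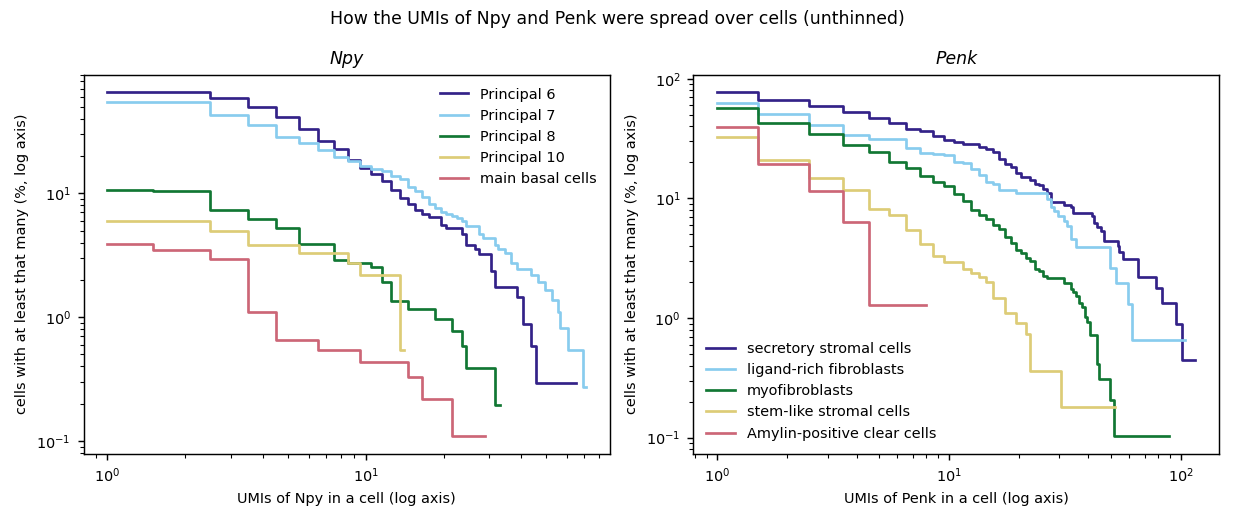
Percent of cells (log axis) with at least a given number of UMIs (log axis) of *Npy* (left) and *Penk* (right), without thinning, in 5 populations each. Curves of Principal 6 and Principal 7 cross, since Principal 7 had fewer carriers but 26 cells with 20 or more UMIs against 19, and the curve of *Penk* in secretory stromal cells reached 116 UMIs in 1 cell.

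Past the corpus *Npy* fell to a minority of cells. In Principal 8, a subcluster of 516 cells of which 486 came from the cauda, the level was 465 UPM (420 to 513) and 27 of 190 thinned cells had the message (14.2%). The level of Principal 7 was 6.78 times as high (6.08 to 7.57). Principal 10 had 241 UPM (192 to 298), Principal 9 had 115 UPM (83.6 to 153), and Principal 8 was 1.93 times Principal 10 (1.52 to 2.47), which was 2.10 times Principal 9 (1.45 to 3.09). In cauda cells alone, Principal 8 was 2.77 times Principal 9 (2.00 to 3.93) and Principal 7 was 9.88 times Principal 8 (8.11 to 12.0). A few cells set these levels. In Principal 8 the 14 cells with 10 or more UMIs were all from the cauda, and 461 of 516 cells had none. In Principal 9 a single cell with 30 UMIs held 66.7% of the 45 UMIs. Of the 931 principal cells of the cauda, 77 carried *Npy*, and 41 of these held 86.1% of its UMIs with 5 or more each. The 22 corpus cells that clustered with Principal 8 had 35 UMIs (3245 UPM, 2260 to 4513), 7.43 times the cauda cells of the same subcluster (5.10 to 10.5), while the corpus cells of Principal 7 were 0.726 times its cauda cells (0.615 to 0.863). Among the cauda cells of Principal 7, 1 cell held 28.5% of the UMIs.

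The ends of the tract were at or near 0. Principal 12 to Principal 15, which are mostly vas deferens cells, had 0 UMIs of *Npy* in 1217 cells and 4423980 UMIs. Principal 1 to Principal 5 together had 69 UMIs (32.5 UPM, 25.3 to 41.2), rising from 0 in Principal 1 to 92.9 UPM in Principal 5, and 4 of 440 thinned cells carried it.

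**Figure D3:**
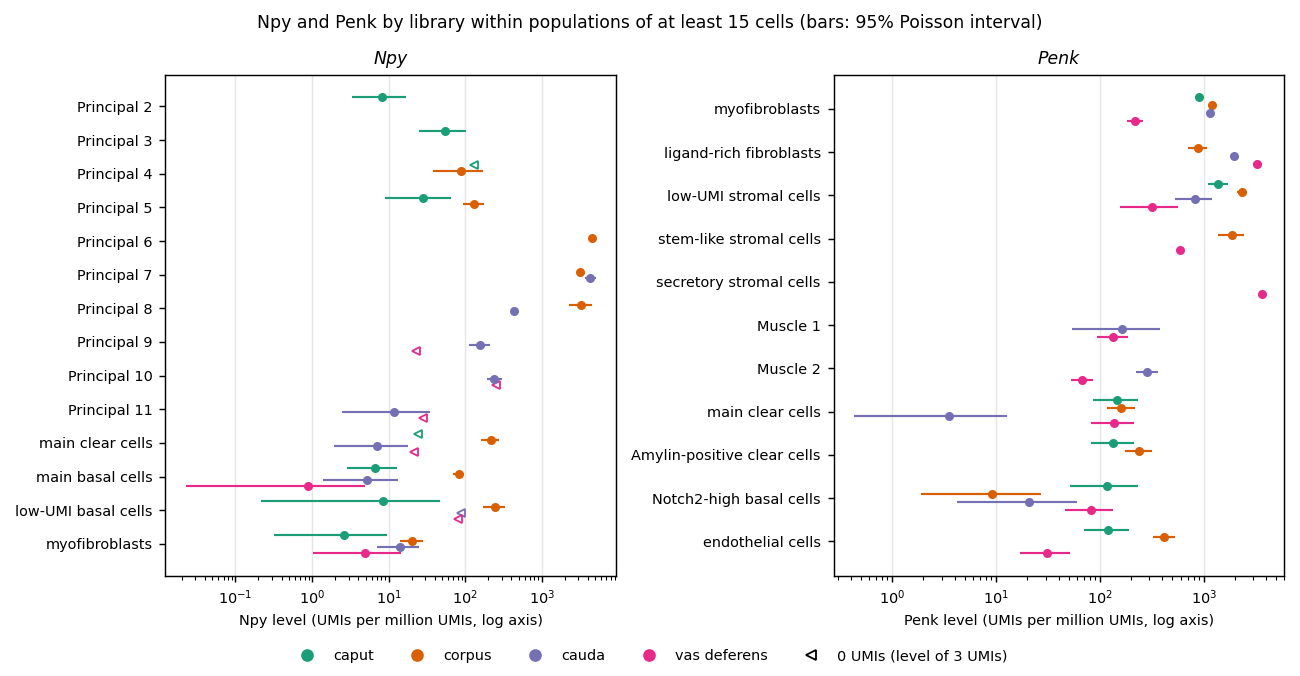
Level of *Npy* (left) and *Penk* (right) in UMIs per 1000000 UMIs on a log axis by library within populations, for each population and library with at least 15 cells. Colours mark the library, bars are 95% Poisson intervals and open triangles mark 0 UMIs at the level of 3 UMIs. *Penk* in myofibroblasts was lowest in the vas deferens (220.2 UPM against 895 to 1193 UPM), whereas in ligand-rich fibroblasts it was highest there (3276 UPM against 875 and 1951).

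Outside principal cells, *Npy* followed the library. The non-principal cells of the corpus had 68.5 UPM (61.5 to 76.0), against 12.1 UPM in the cauda (8.56 to 16.6), 6.27 UPM in the vas deferens (4.44 to 8.60) and 5.21 UPM in the caput (2.85 to 8.75), a ratio of 5.66 between corpus and cauda (4.05 to 8.14). In the corpus, *Npy* was at 141 UPM in clear cells, 103 UPM in endothelial cells, 83.2 UPM in basal cells and 34.0 UPM in stromal cells, that is 5.26%, 3.85%, 3.09% and 1.27% of its level in corpus principal cells, and at 0 in the 38 immune cells. Other messages of corpus principal cells were measured in the same way. The 5 genes nearest to *Npy* in UMIs there, among those at least 4-fold higher in the corpus, were *Bsph2*, *BC048679*, *Wfdc13*, *Spint5* and *Defb37*, and in the non-principal cells of the corpus they stood at 1.24% to 2.67% of their principal cell level, beside 2.55% for *Npy*. In clear cells they stood at 3.11% to 8.79%, a range that holds the value of *Npy*, as did their 0.820% to 2.38% in stromal cells. *Npy* was above their range in basal cells (1.07% to 2.31% beside 3.09%) and in endothelial cells (0.714% to 2.52% beside 3.85%, from 17 UMIs). Of the 91 carriers among corpus non-principal cells, 13 were called doublets, compared with 28 of all 1396, and in basal cells 5 of the 6 cells with 5 or more UMIs of *Npy* were called doublets. Leaving out called doublets gave a ratio of 4.04 between corpus and cauda (2.81 to 5.98). The part of free RNA in these levels was not tested.

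Counts of *Npy* had a gap at 1 UMI in 2 of the 4 libraries. In the corpus none of the 529 carriers had exactly 1 UMI, 117 had 2 and 94 had 3, and in the cauda none of 93 carriers had exactly 1. In the caput and vas deferens, by contrast, 19 of 25 and 16 of 23 carriers had exactly 1. All 5 of the corpus genes named above also lacked corpus cells with exactly 1 UMI, and *BC048679* lacked those with 2 as well. *Penk* did not show this gap, with 176 of 514 corpus carriers at exactly 1 UMI. Low counts of *Npy* are therefore not on the same footing in the 4 libraries, and the part of the ambient RNA subtraction in the gap was not tested. In the vas deferens, where this gap was absent, 17 of 1015 stromal cells had 33 UMIs of *Npy* (13.2 UPM), although its 1360 principal cells had 1 UMI. Of these 17 cells, 10 were secretory stromal cells with at most 2 UMIs each, and 1 stem-like stromal cell with 7 UMIs was a called doublet.

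Proenkephalin was expressed across the stroma of the whole tract. All 5 stromal populations had more *Penk* than any other population. The secretory stromal cells, of which 213 of 226 came from the vas deferens, had 3677 UPM (3534 to 3824), ligand-rich fibroblasts 2025 UPM (1908 to 2147), low-UMI stromal cells 1715 UPM (1565 to 1875), myofibroblasts 971 UPM (941 to 1003) and stem-like stromal cells 663 UPM (617 to 712). Each neighbour in this order differed by more than its counting error, the closest pair being ligand-rich fibroblasts and low-UMI stromal cells at a ratio of 1.18 (1.06 to 1.32). That interval takes UMIs as independent, but 1 ligand-rich cell of 105 UMIs held 9.38% of its population's UMIs. In thinned cells the variance was 7.75 and 5.45 times the mean in this pair, so the interval is too narrow to rank it. The order given above is that of the pooled libraries, which differ in their mix of populations, and does not hold within each. Stem-like stromal cells were above myofibroblasts in the corpus (1867 against 1193 UPM), the cauda (2719 against 1153 UPM) and the vas deferens (595 against 220.2 UPM), and low-UMI stromal cells were above ligand-rich fibroblasts in the corpus (2349 against 875 UPM). In the secretory stromal cells *Penk* ranked 25 by UMIs among 3652 genes with at least 20 UMIs. After thinning, 136 of 185 of these cells had *Penk* (73.5%, 66.5 to 79.7), against 48.4% of ligand-rich fibroblasts, 38.3% of myofibroblasts and 24.7% of stem-like stromal cells. In the principal cells of the vas deferens, 11 of 773 thinned cells had it (1.42%), where the level was 5.77 UPM and the median depth 1286.5 UMIs before thinning, against 3065.5 in the secretory stromal cells.

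Over all stromal cells the caput was lowest, while the cauda and vas deferens differed by less than counting error. Pooled stromal cells had 924 UPM of *Penk* in the caput (860 to 992), 1275 UPM in the corpus (1226 to 1326), 1444 UPM in the cauda (1376 to 1514) and 1432 UPM in the vas deferens (1385 to 1479). The caput was 0.640 times the cauda (0.587 to 0.698), and the vas deferens was 0.992 times the cauda (0.936 to 1.05). Thinned shares had another order, highest in the corpus (49.1%) and caput (47.8%), lower in the cauda (40.3%) and lowest in the vas deferens (33.0%). *Penk* was not among the 2.13% of 7919 genes with 1 library at least 4-fold above every other in stromal cells. Taken as the mean over cells, which gives shallow cells the same weight, the vas deferens was 0.750 times the corpus, which then came first.

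Within populations the libraries differed, and not in the same direction. Myofibroblasts, the largest stromal population, had 895 UPM in the caput (829 to 964), 1193 UPM in the corpus (1141 to 1246), 1153 UPM in the cauda (1079 to 1231) and 220.2 UPM in the vas deferens (185 to 261). The corpus was 5.42 times the vas deferens (4.55 to 6.50). Thinned shares were likewise lowest in the vas deferens, at 11% of cells. In the caput, corpus and cauda they were 48.5%, 47.5% and 39.3%, which is not the order of the levels. The 4 stromal markers summed to 2382 to 4273 UPM in the epididymal myofibroblasts and 2840 UPM in those of the vas deferens, and the 4 muscle markers (*Myh11*, *Actg2*, *Des* and *Cnn1*) to 2943 to 6042 UPM and 3839 UPM, so neither list set the vas deferens apart. Ligand-rich fibroblasts, a population named for its many signalling ligands, went the other way, with 875 UPM in the corpus (701 to 1080), 1951 UPM in the cauda (1801 to 2111) and 3276 UPM in the vas deferens (2963 to 3613). Here the corpus was 0.267 times the vas deferens (0.209 to 0.338). A single vas deferens cell of 105 UMIs held 26.2% of the UMIs of the 39 vas deferens cells.

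Stem-like stromal cells of the vas deferens had 595 UPM of *Penk* (551 to 643), and the secretory stromal cells of the same library were 6.15 times as high (5.63 to 6.71). The 16 stem-like cells from the corpus had 1867 UPM (1385 to 2461) and the 11 from the cauda 2719 UPM (2048 to 3539), above the vas deferens cells of the same population. The lead of the secretory stromal cells over ligand-rich fibroblasts was 1.82 with all libraries pooled (1.69 to 1.95), and 1.12 in vas deferens cells alone (1.0 to 1.24). The latter ratio includes the ligand-rich cell of 105 UMIs, which held 26.2% of its group's UMIs, and was not computed without that cell. In vas deferens cells the secretory population was 16.6 times the myofibroblasts (14 to 19.9).

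*Penk* was also spread unevenly over stromal cells. In the secretory population 50 of 226 cells had none and 37 had 20 or more UMIs, and the 23 richest cells held 50.6% of the UMIs. In thinned cells the variance was 5.32 times the mean in this population, 7.75 times in ligand-rich fibroblasts and 3.01 times in myofibroblasts, where counting error alone gives a value near 1.

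Clear cells, the epithelial cells that pump protons into the lumen, carried *Penk* at a lower level than stroma, and more in the caput and corpus than in the cauda. Clear cells had 139 UPM in the caput (98.0 to 192; 37 UMIs in 20 of 73 cells), 199 UPM in the corpus (161 to 244; 93 UMIs in 39 of 132 cells) and 3.45 UPM in the cauda (0.418 to 12.5; 2 UMIs in 105 cells). After thinning, 20 of 124 cells of the caput and corpus had it (16.1%), and 0 of 92 in the cauda. A count of 0 allows a share of cells with a UMI of up to 3.26% (3 of 92 cells), and the Clopper-Pearson upper limit was 3.93%. The cauda clear cells were the deeper ones, with a median of 5796 UMIs against 2038 in the caput and 1581 in the corpus. Amylin-positive clear cells, all of them from caput or corpus, had 194 UPM (150 to 248) and were 1.24 times the main clear cells of those libraries (0.858 to 1.79), an interval that includes 1. Clear cells of the caput and corpus were 16.9 times the principal cells (11.5 to 25.6) and 17.6 times the basal cells (12.2 to 25.9) of the same libraries, and 0.152 times their stromal cells. The vas deferens value of clear cells, 127 UPM, came from 2 cells with 17 and 2 UMIs, both called doublets. Stromal markers moved with these levels: the 4 summed to 479 UPM in clear cells of the caput and corpus and 79.4 UPM in those of the cauda. In the Amylin-positive clear cells the sum was 534 UPM, above that of all clear cells of both libraries, and came from *Dcn* alone, with *Col1a1*, *Col1a2* and *Pdgfra* at 0. Among clear cells of the caput and corpus, 42.4% of the 59 *Penk* carriers had a stromal marker UMI against 22.6% of the others, and 91.5% against 70.5% had a clear cell marker UMI. The carriers had a median depth of 6605 UMIs against 1691 over all those cells, and the part of stromal RNA in the *Penk* level was not tested.

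Muscle cells had *Penk* at 162 UPM in Muscle 1 (120 to 214) and 107 UPM in Muscle 2 (89.6 to 127). In Muscle 2, 18 of 31 cauda cells had 64 UMIs (287 UPM, 221 to 366), 4.25 times the vas deferens cells (2.97 to 6.08).

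In endothelial cells *Penk* was highest in the corpus, but its carriers there lacked endothelial markers. The 245 endothelial cells had 101 UMIs in 19 cells (121 UPM, 98.5 to 147), with 120 UPM in the caput, 419.8 UPM in the corpus, 13.4 UPM in the cauda and 30.8 UPM in the vas deferens, which was 0.135 times the pooled epididymis (0.0707 to 0.238). In the corpus 3 cells with 23, 20 and 20 UMIs held 91.3% of 69 UMIs. The 8 corpus carriers had 0 UMIs of the 5 endothelial markers (*Pecam1*, *Cdh5*, *Emcn*, *Cldn5* and *Vwf*) and 244 UMIs of the 4 stromal markers, whereas the other 31 corpus cells had 362 and 18. Most of the 244 were in 2 carriers with 1 UMI of *Penk* each, which had 112 and 85. The 3 cells richest in *Penk* had 11, 3 and 21 stromal marker UMIs. Over all libraries, the 47 endothelial cells without an endothelial marker UMI held 87 of the 101 *Penk* UMIs. In cells with at least 1 endothelial marker UMI the direction turned, with 12 UMIs in the vas deferens and 2 in the epididymis (ratio 4.67, 1.04 to 43.0). Of these 12 UMIs, 7 were in 1 cell, and without it the ratio was 1.99 (0.326 to 20.9), an interval that includes 1.

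A like pattern held in basal cells. Notch2-high basal cells had 29 UMIs of *Penk* in 9 of 165 cells (40.1 UPM, 26.9 to 57.6) and main basal cells 43 UMIs in 917 cells (8.43 UPM, 6.10 to 11.4), a ratio of 4.76 (2.87 to 7.80). Of the 29 UMIs, 26 were in the 24 cells with no UMI of a basal marker (*Krt5*, *Krt14*, *Itga6* or *Trp63*), and the 9 carriers had 63 UMIs of stromal markers against 33 in the other 156 cells. Among cells with a basal marker UMI the ratio was 0.538 (0.107 to 1.69), from 3 UMIs in the Notch2-high cells. The size of the ratio varied with the library left out, from 2.96 without the caput (1.67 to 5.12) to 10.2 without the corpus (5.50 to 19.3). The ratio was 7.84 with called doublets left out and 12.3 as a mean over cells.

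**Figure D4:**
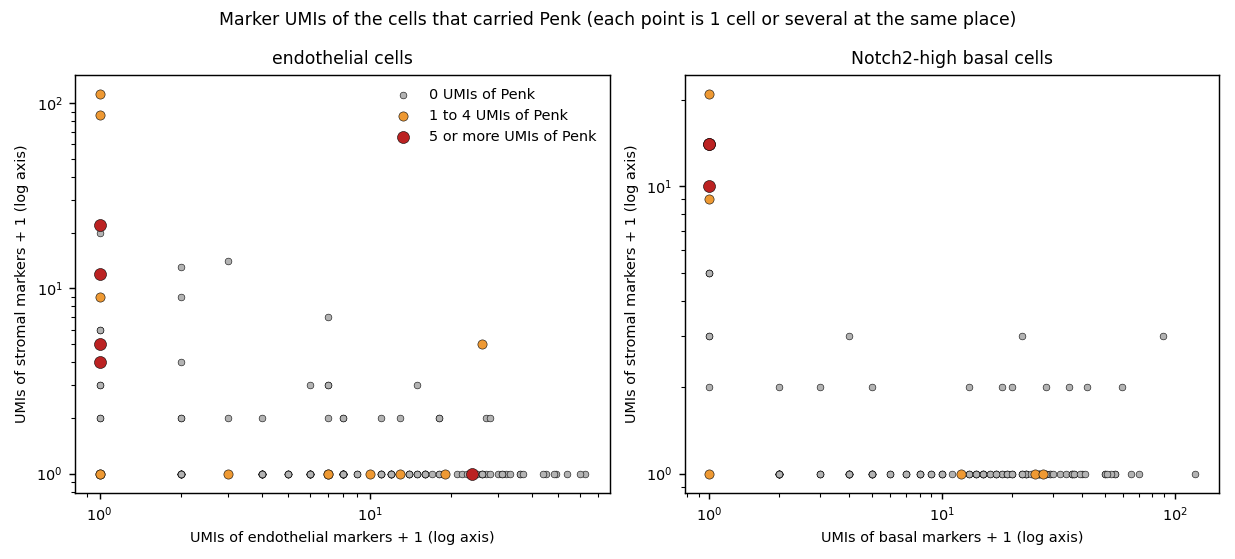
UMIs of stromal markers plus 1 against UMIs of the cell type's own markers plus 1, both on log axes, for each endothelial cell (left) and each Notch2-high basal cell (right), coloured by the number of *Penk* UMIs. Of 5 endothelial cells with 5 or more *Penk* UMIs, 4 lie at the left edge with no endothelial marker, as do all 3 such Notch2-high basal cells with no basal marker.

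In immune and principal cells *Penk* was sparse. Principal subclusters had between 0 and 24.8 UPM and no principal cell had more than 2 UMIs, and the 195 immune cells had 6 UMIs in 6 cells.

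The enzymes that process these precursors were read from a list of processing genes. *Pcsk1* and *Pcsk2*, the convertases of neuroendocrine cells, had 2 and 12 UMIs in all cells. Convertases of wider expression were present, *Furin* at 143 UPM in Principal 6 and 31.1 UPM in the secretory stromal cells, *Pcsk7* at 37.6 and 10.4 UPM, and *Pcsk5* at 0 and 69.6 UPM. *Cpe*, which encodes carboxypeptidase E, had 8 UMIs in each subcluster (18.8 UPM in Principal 6, 12.4 UPM in Principal 7), compared with 433 UPM in main basal cells and 714 UPM in myofibroblasts. *Pam*, which encodes the amidating enzyme, had 2 UMIs in Principal 6 (4.70 UPM) and 18.6 UPM in Principal 7, against 461 UPM in myofibroblasts and 755 UPM in ligand-rich fibroblasts. The levels of *Cpe* and *Pam* were thus low in Principal 6 and Principal 7, where *Npy* was high. Other principal subclusters are not given here, so this is not shown to be particular to these. Both genes were detected in all stromal populations. The secretory population, highest in *Penk*, had the lowest *Cpe* and *Pam* of these, at 66.6 and 175 UPM. These are population levels, and cells that carried *Penk* with either gene were not counted. *Pcsk1n*, which encodes an inhibitor of prohormone convertase 1, was at 570.1 UPM in ligand-rich fibroblasts and 558 UPM in stem-like stromal cells and 35.5 UPM in the secretory stromal cells. *Scg5*, which encodes the chaperone of prohormone convertase 2, was highest in clear cells (447 UPM, 19.9 times the next type). Of 16 processing genes, 12 reached 20 UMIs in their highest type and 3 of these (*Cpz*, *Pcsk1n* and *Scg5*) were at least 4-fold above every other type, 25% beside 11.8% over all genes.

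Of the peptidases that degrade these peptides, *Mme*, which encodes the enkephalin-cleaving neprilysin, was at 648 UPM in Principal 6 and 202 UPM in Principal 7 but 13.3 UPM in the secretory stromal cells. *Dpp4*, whose product trims neuropeptide Y, was at 171 UPM in Principal 6, lower in Principal 7 (55.9 UPM), and 4.44 UPM in the secretory stromal cells. *Ace* was highest in Principal 4 and Principal 5 (609 and 547 UPM). Of 10 peptidase genes 8 reached 20 UMIs, with a median ratio of 1.90 to the next type beside 1.39 over all genes. None was 4-fold above every other type, a count too small to set against the 11.8% over all genes.

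Receptors were few. *Npy1r* had 109 UMIs, 39 in muscle cells (25.6 UPM) and 52 in stromal cells (8.02 UPM), a ratio of 3.19, and 0 UMIs in Principal 6 and Principal 7. *Npy2r* had 23 UMIs and *Npy6r* 17 in all cells. *Oprd1*, which encodes the enkephalin receptor of the delta type, had 1 UMI and *Oprl1* 2. *Oprm1* was counted at 2056 UMIs, with immune cells (182 UPM) 1.71 times the next type, but the annotation places *Ipcef1* and *Gm10945* over it, so its counts are uncertain. *Ogfr*, which encodes the opioid growth factor receptor, was at 80.2 UPM in its highest type, endothelial cells, and 1.14 times the next. Only 1 NPY receptor gene and 2 opioid receptor genes reached 20 UMIs in their highest type. None of them was 4-fold above every other type, a count too small to set against the 11.8% over all genes.

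Of the sister precursors, *Ppy* was also a principal cell message (210 of 224 UMIs, 4.26 times the next type) but of the caput, highest in Principal 3 (331 UPM) and next in Principal 2 (148 UPM). *Pomc* and *Pnoc* had 95 and 19 UMIs over all cells. Over all lists together, 13 of 44 genes that reached 20 UMIs had 1 type at least 4-fold above every other (29.5%, median ratio 2.19), beside 11.8% and a median ratio of 1.39 over all 11352 genes, and both *Npy* and *Penk* are among the 13.

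**Figure D5:**
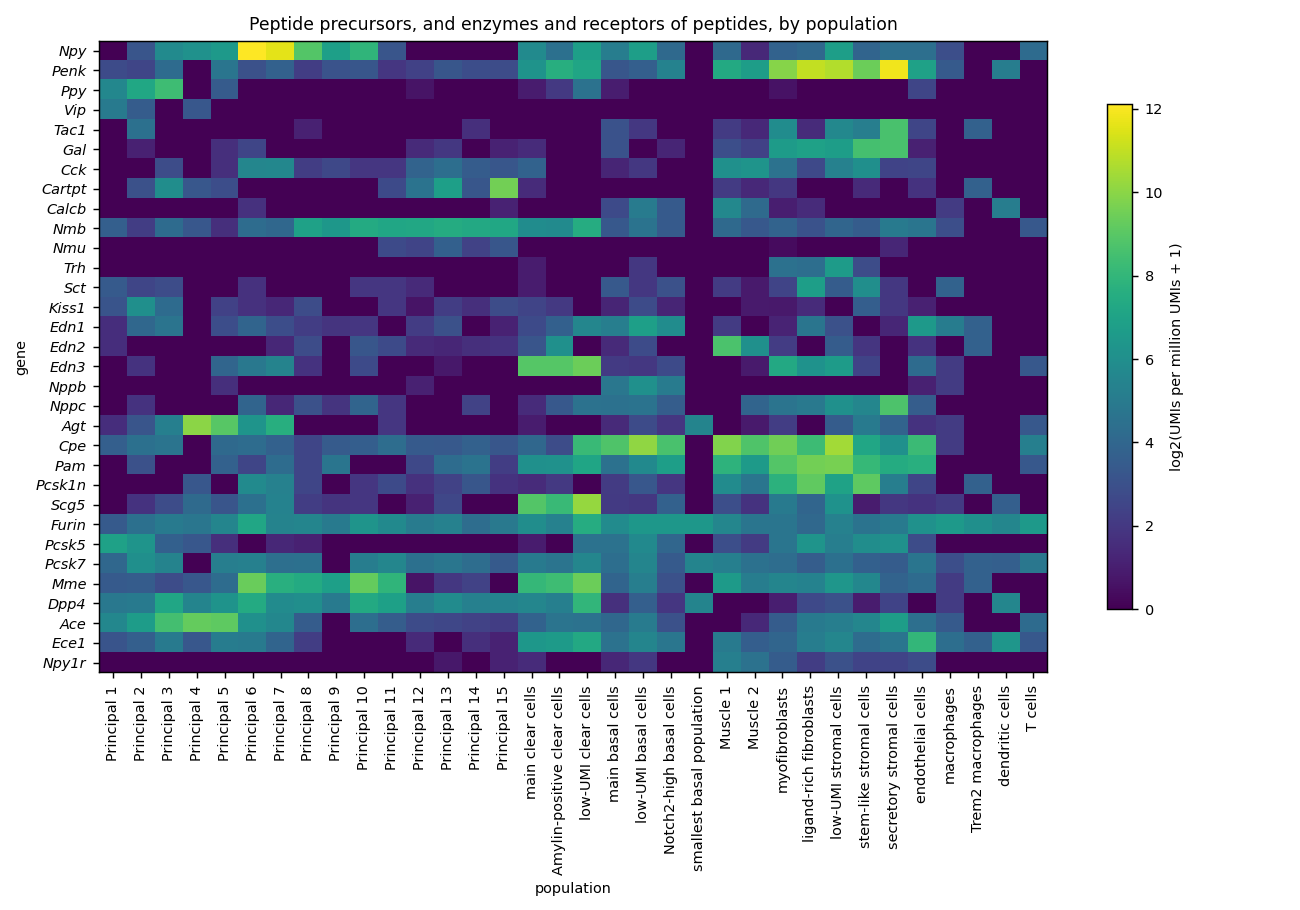
Level of peptide precursors, processing enzymes, peptidases and *Npy1r* (rows) in the 34 populations (columns), coloured by log2(UMIs per 1000000 UMIs plus 1). *Npy* is brightest in Principal 6 and Principal 7, where *Cpe* (18.8 and 12.4 UPM) and *Pam* (4.70 and 18.6 UPM) are dark, and *Penk* is bright across the stromal columns, where *Pam* runs from 175 to 801 UPM and *Cpe* from 66.6 UPM in the secretory stromal cells to 1369.8 UPM in low-UMI stromal cells.

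The genes whose levels over the 34 populations were most like that of *Npy* included 3 beta-defensins. By Pearson's r of log2(UPM + 1) over the populations, among 11614 genes, they were *Defb38* (0.860), *Defb37* (0.842), *Bsph2* (0.820), *Defb26* (0.819) and *Pate2* (0.814), and each was highest in Principal 6 or Principal 7. Those most like *Penk* were *Mxra8* (0.901), *Loxl1* (0.863), *Kdelc2* (0.847), *Cdh11* (0.845) and *Wisp1* (0.843), each highest in a stromal population. These values describe populations that share 4 libraries and differ in depth, and carry no test.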

How the data were processed

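Single-cell 3′ RNA sequencing of dissociated, sperm-depleted cells was analysed from 4 libraries, 1 per region. The authors aligned reads to mm10 (the same assembly as GRCm38) with HISAT2 2.0.4, counted UMIs on RefSeq genes with ESAT, merged similar UMIs, filtered barcodes on total UMIs and removed ambient RNA per cell with a modified SoupX. The deposited values are whole-number counts of UMIs per gene and cell after that removal, with a table of each cell's library, cluster and UMIs before it.

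Populations were taken from that table and matched to the names of the study by their numbers of cells. The sum of a gene's UMIs per 1000000 UMIs of a group of cells (UPM) was given an exact Poisson 95% interval, ratios an exact conditional binomial interval and shares of cells, after thinning to 1000 UMIs per cell, a Clopper-Pearson interval. PCR and sampling of animals are outside these intervals. A count of 0 was set at 3 UMIs in ratios. A gene was called for a type or library with at least 20 UMIs and 4 times the level of every other. This call and the intervals of ratios were tried on simulated counts drawn as independent Poisson values. The intervals assume that same model, so the trial could not check them for counts as uneven over cells as these. Doublets were called per library from simulated doublets (1500 variable genes, 30 components, an assumed 0.8% per 1000 cells) in 178 cells, and 33.4% to 55.1% of simulated doublets were recovered, so others were missed. Called doublets stayed in the main values. No test was made and no p-value given, since each region was 1 library.

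The genes named are both members in every population and library, the genes of the lists that reached 20 UMIs in a type, the 5 genes nearest to each member over populations, and the 5 corpus genes nearest to *Npy* in UMIs. Members, lists and marker genes were chosen with earlier results of these data known. Genes named beyond this rule for their near absence (*Pcsk1*, *Pcsk2*, *Oprd1*, *Oprl1*, *Npy2r*, *Npy6r*, *Pomc*, *Pnoc*) were picked after their values were seen. Of 93 list genes, 83 are rows of the matrix. Sequences and positions were read from the GENCODE transcripts of GRCm38. Scripts ran in Python 3.11.15 with pandas 2.3.3, numpy 2.4.6 and scipy 1.17.1. Doublets used scikit-learn 1.9.0 and plots matplotlib 3.10.9.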

Additional observations from a re-analysis of the deposited data

Results flagged for a closer look

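Between the same pair of libraries, some populations were higher in one library and others in the other. Each region was 1 library, so the difference between populations was not tested. For *Npy*, corpus over cauda was 0.726 in Principal 7 but 7.43 in Principal 8, 16 in main basal cells and 30.5 in main clear cells, the last resting on 4 UMIs in the cauda. For *Penk*, corpus over vas deferens was 0.267 in ligand-rich fibroblasts but 3.13 in stem-like stromal cells, 5.42 in myofibroblasts, 7.43 in low-UMI stromal cells and 13.6 in endothelial cells. Cauda over vas deferens was 0.596 in ligand-rich fibroblasts, 2.59 in low-UMI stromal cells, 4.25 in Muscle 2 and 5.24 in myofibroblasts. Corpus over cauda was 0.449 in ligand-rich fibroblasts, 2.86 in low-UMI stromal cells and 45.7 in main clear cells, which had 2 UMIs in the cauda. Caput over cauda was 0.776 in myofibroblasts and 1.68 in low-UMI stromal cells. The low-UMI stromal value of the vas deferens rested on 11 UMIs, and the endothelial value on the cells without endothelial markers described above.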

How the results depend on the processing

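Of 69 alternative values, 41 stayed within the counting interval of the reported value (for the count of genes, within 1.5 times it), 24 moved and 4 reversed. A reversal means that the ratio fell on the other side of 1, whatever its interval. For *Npy* it was Principal 6 over Principal 7 without the corpus (0.776, 0.543 to 1.09). For *Penk* it was the endothelial ratio of vas deferens to epididymis among cells with an endothelial marker UMI (4.67, 1.04 to 43.0). Without the vas deferens cell with the most *Penk* that ratio was 1.99 (0.326 to 20.9), also a reversal. The last was the Notch2-high to main basal ratio among cells with a basal marker UMI (0.538, 0.107 to 1.69). All but the 4.67 had an interval that includes 1, and the 4.67 rested on 2 UMIs in the epididymis. Those marker requirements, the removal of that cell and the restriction to corpus or vas deferens cells were chosen after seeing the data. As a mean over cells, corpus over cauda for *Npy* in principal cells was 8.44, Principal 6 over Principal 7 was 1.21, stromal *Penk* in vas deferens over the next library was 0.750, the secretory lead was 1.67 and the basal ratio was 12.3. Principal 6 over Principal 7 was 1.52 in cells of at least 1000 UMIs and 1.26 without mitochondrial and ribosomal genes. Without called doublets it was 1.31, the *Npy* ratio outside principal cells was 4.04 and the basal *Penk* ratio was 7.84. In vas deferens cells alone the secretory lead was 1.12, with 1 ligand-rich cell holding 26.2% of the UMIs of the lower group. Leaving out 1 library at a time gave 0.776 to 1.46 for Principal 6 over Principal 7, 1.62 to 2.05 for the secretory lead, 2.96 (without the caput) to 10.2 (without the corpus) for the basal ratio, 0.105 to 0.370 (without the corpus) for the endothelial ratio and 10 to 14 for the count of 13 list genes. That count was 25 at fold 2 and 8 at fold 8. The share of cells with *Npy* was 72.7% in Principal 6 and 66.1% in Principal 7 with cells thinned to 500 UMIs, and 66% and 54.8% without thinning. At 2 or more UMIs it was 81.3% in Principal 6. For *Penk* in secretory stromal cells the share was 53.2% at 500 UMIs and 55.7% at 2 or more UMIs. The causes of these shifts were not tested. No paired analysis was possible because each region is 1 library. Animals were pooled, and dissection borders varied slightly, so region values carry no replicate error.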

Other observations

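Other neuropeptide genes were detected in the stromal populations with high *Penk*, and their overlap with *Penk* in single cells was not counted. *Gal*, which encodes galanin, was at 397 UPM in the secretory stromal cells (59 of 226 cells) and 367 UPM in stem-like stromal cells. By library, pooled stromal cells had 55.0 UPM of *Gal* in the caput, 91.9 UPM in the corpus, 52.0 UPM in the cauda and 352 UPM in the vas deferens, which was the highest. *Tac1*, the precursor of substance P, was at 395 UPM in the secretory stromal cells but in 31 of 226 cells, and at 58.4 UPM in myofibroblasts. *Nppc*, which encodes C-type natriuretic peptide, was at 423 UPM in the secretory stromal cells (46 of 226 cells).

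Principal cells carried precursors other than *Npy*. *Agt*, which encodes angiotensinogen, was highest in Principal 4 (1017 UPM), and by library it was at 55.7 UPM in caput and 304 UPM in corpus principal cells. *Nmb*, which encodes neuromedin B, was at 14.1 UPM in corpus principal cells, 118 UPM in those of the cauda and 159.5 UPM in those of the vas deferens. *Cartpt*, the CART prepropeptide gene, was at 733 UPM in Principal 15, where 13 of 332 cells held all of its 602 UMIs. *Edn3*, which encodes endothelin 3, was a clear cell message (488 UPM over all libraries) and was also at 106 UPM in stromal cells, where it ranged from 10.8 UPM in the vas deferens to 190.5 UPM in the corpus.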
